A study of Mus musculus with 8 samples.

Results

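Long noncoding RNAs (lncRNAs) are transcripts without a recognised protein product. In sorted mouse Paneth cells, 611 of 55414 rows of the gene count table were well-measured lncRNAs, and they are described here. They were selected on their measured level: a row had to match an autosomal gene of type lncRNA in the GENCODE annotation of GRCm39, lie outside the alpha-defensin region of chromosome 8, and average at least 2 CPM (counts per 1000000 counts of the library) over the 4 PBS libraries or over the 4 TNF libraries. Of 8926 autosomal lncRNA rows outside that region, 3528 had any count. The floor of 2 CPM was reached in both groups by 426 members, in PBS alone by 136 and in TNF alone by 49.

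Paneth cells sit at the crypt base of the small intestine and secrete antimicrobial peptides. Wild-type mice (genotype WT in the labels, C57BL/6J per the study) received phosphate-buffered saline (PBS) as the control or tumor necrosis factor (TNF), and 3 hours later Paneth cells of the small intestine were collected by sorting. The sources used here give neither the age of the mice nor the dose of TNF. Each group had 4 libraries, read as 1 sample each, and the labels do not say that the libraries came from separate mice, while the study describes its sorted Paneth cell samples as each taken from a single animal. The p-values measure the spread between these libraries.

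Some lncRNAs carry small nucleolar RNAs (snoRNAs) or microRNAs in their introns and are kept mainly for that cargo. Others act as scaffolds in the nucleus, such as Neat1 in paraspeckles, or silence imprinted genes in cis. A large class runs antisense to a protein-coding gene or starts from the same promoter in the opposite direction, and inflammatory stimuli in macrophages and epithelium are known to induce lncRNAs next to immune genes.

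The members were mostly low. Their median over the PBS libraries was 4.21 CPM, and 113 members averaged at least 10 CPM in PBS against 106 in TNF. Their summed share of the counts was 0.599% ± 0.0704 in PBS and 0.566% ± 0.0881 in TNF (SD, n = 4 each). A member had a median of 101 counts in a library. The median coefficient of variation between libraries was 14.9% in PBS and 19.7% in TNF, counting error included, which is a sizeable part of it for a typical member: at the mean counts of the members above the floor in both groups, counting alone gives a median of 7.94% in PBS and 8.87% in TNF.

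Library totals were 23824717 to 32576077 counts. TNF library 4 stood apart: its TMM factor, which scales a library to the bulk of its genes, was 0.448 against 0.995 to 1.36 in the other libraries, so scaling raised its values relative to plain CPM and did so for no other library to that extent. The normalized CPM of TNF library 4 was the highest of its group for 160 of the 426 members above the floor in both groups and the lowest for 176. The summed CPM of 6 Paneth markers was 367000 to 415000 in PBS and 374000 to 463000 in TNF. Of 9 immune markers, Cd3e, Cd79a and S100a8 were among those at 0 in every library, and the summed level of the list was 9.92 to 13.9 CPM in PBS and 11.9 to 30.8 in TNF. Of 7 stromal markers, Col1a2 and Col3a1 were at 0, and the sum stayed between 0.234 and 1.88 CPM. Summed markers of stem cells were 2570 to 2960 CPM in PBS and 907 to 2480 in TNF, and those of enteroendocrine cells 10.8 to 16.6 and 27.3 to 39.7. The part of these cells in the results below was not tested, and in bulk samples fewer cells of a type and less RNA per cell cannot be told apart.

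A feature that the selection did not use runs through the members. Of the 611, 568 (93.0%) shared exonic bases with a gene on the opposite strand, and 524 (85.8%) with a protein-coding gene there. Among all 8926 autosomal lncRNA rows these shares were 52.5% and 32.2%. Sharing covered over 50% of the exonic bases in 156 members (25.5%) against 7.06% of all lncRNA rows, and all of them in 33. A start site within 2000 bases of a coding start site on the opposite strand was found for 281 members (46.0%) against 18.8%. Members had a median of 2665 exonic bases against 1994 in all lncRNA rows. The libraries were made with a stranded kit, but the sources used here do not say whether the counting used strand, so reads of a lncRNA and of its antisense partner cannot be told apart where their exons overlap. Only 40 members (6.55%) shared no exonic base with any gene on either strand, where overlap with small RNA genes such as snoRNAs and microRNAs was not counted. They are described first.

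Among the 40 members without a shared base, AW112010 on chr19:11021549-11033246 stood out. It is known as a lncRNA induced by interferon and microbial signals in immune cells, and an unconventional small protein has been described from it. Its promoter window is shown because it held both an NF-kB-like and an interferon-response-like run of letters. Windows of 300 bases, from 250 before to 50 after the start of the canonical transcript, were read from GRCm39 in the direction of transcription, for AW112010, for 1200007C13Rik and 4732490B19Rik, members without a shared base that had a large excess in TNF and were above the floor in TNF alone, and for AW011738, the member without a shared base that fell most among those above the floor in both groups. Capitals mark matches to GGGA and TTCC with any 2 bases between (NF-kB-like), GAAA and GAAA with any 2 bases between (interferon response), or TTC and GAA with any 3 bases between (STAT-like), on either strand and with overlaps allowed.
AW112010 (chr19:11033145-11033444, minus strand): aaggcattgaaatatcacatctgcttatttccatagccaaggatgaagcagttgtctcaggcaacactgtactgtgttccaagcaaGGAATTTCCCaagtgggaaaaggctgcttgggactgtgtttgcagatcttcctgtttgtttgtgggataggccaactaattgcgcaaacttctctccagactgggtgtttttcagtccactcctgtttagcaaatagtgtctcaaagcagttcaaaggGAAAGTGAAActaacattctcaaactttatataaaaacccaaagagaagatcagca
1200007C13Rik (chr2:167675517-167675816, minus strand): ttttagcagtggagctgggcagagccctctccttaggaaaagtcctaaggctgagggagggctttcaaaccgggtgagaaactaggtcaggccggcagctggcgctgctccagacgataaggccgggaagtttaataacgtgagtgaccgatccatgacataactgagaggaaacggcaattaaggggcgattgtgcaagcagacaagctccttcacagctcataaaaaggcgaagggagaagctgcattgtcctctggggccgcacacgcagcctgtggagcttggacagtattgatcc
4732490B19Rik (chr11:113100446-113100745, minus strand): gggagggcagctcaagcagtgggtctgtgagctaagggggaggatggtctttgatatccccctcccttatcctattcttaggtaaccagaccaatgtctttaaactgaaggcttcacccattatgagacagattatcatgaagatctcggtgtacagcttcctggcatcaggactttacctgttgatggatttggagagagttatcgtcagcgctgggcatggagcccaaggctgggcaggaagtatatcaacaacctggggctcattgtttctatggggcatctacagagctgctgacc
AW011738 (chr4:156287406-156287705, plus strand): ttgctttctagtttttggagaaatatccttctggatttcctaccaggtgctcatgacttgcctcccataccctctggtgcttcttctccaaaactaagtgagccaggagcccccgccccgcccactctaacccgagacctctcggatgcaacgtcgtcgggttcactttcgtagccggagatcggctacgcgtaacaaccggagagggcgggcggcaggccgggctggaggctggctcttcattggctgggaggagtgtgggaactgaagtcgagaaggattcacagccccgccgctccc

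In AW112010 the NF-kB-like run began at position -164 from the start and the interferon-response run at -6. No match to the 3 patterns was found in the windows of the other 3. The NF-kB-like pattern was present in 1.55% of the same windows of 13303 genes tested, the interferon-response pattern in 3.65% and the STAT-like pattern in 7.51%. Among the 611 members the shares were 1.64%, 4.42% and 7.53%. Among members above the floor in both groups, 98 were called higher in TNF by the edgeR test, and 3, 7 and 6 of these held the patterns in the same order. Of the 61 called lower 0, 1 and 8 did, and of the 267 not called 5, 10 and 17. These are matches of letters and not mapped sites.

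AW112010 had 6.19, 4.06, 5.29 and 5.77 plain CPM in PBS libraries 1 to 4 and 308, 267, 255 and 464 in TNF libraries 1 to 4. The lowest TNF library lay far above the highest PBS library. After TMM scaling the means were 4.50 ± 0.536 and 456 ± 387 normalized CPM (SD, n = 4 each), and the large SD came from TNF library 4, at 1040 against 240 to 278 in the others. The log2 fold change (TNF against PBS) was 6.66 (SE 0.58, adjusted p = 1.91e-05, Benjamini-Hochberg adjustment over 13368 genes of edgeR's quasi-likelihood test), the largest among the 426 members above the floor in both groups. The 40 members without a shared base summed to 0.0263% ± 0.00419 of the counts in PBS libraries and 0.0555% ± 0.00258 in TNF libraries, and AW112010 averaged 5.33 and 324 plain CPM within that.

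Of the 19 such members above the floor in both groups, 3 (15.8%) were called higher and 2 (10.5%) lower, where 23.2% and 19.6% of all genes tested were. 2 rose beside AW112010. 1810028F09Rik, a single-exon gene on chr14:51380327-51381574 that begins 881 bases downstream of Rnase1 on the same strand, had 9.89, 11.2, 8.12 and 7.22 normalized CPM in PBS and 24.4, 22.0, 23.8 and 14.7 in TNF. Its groups did not overlap, and the estimate was 1.23 on the log2 scale (SE 0.19, adjusted p = 0.00036). With library size alone it was 0.92 and not called (adjusted p = 0.0854). Rnase1, which encodes the secreted pancreatic-type ribonuclease, had a log2 fold change of 0.14 (adjusted p = 0.624). Gm43305 on chr14:54529898-54534949 had 15.4, 24, 18.9 and 27.5 normalized CPM in PBS and 18.5, 69.1, 97.4 and 50.6 in TNF. Here TNF library 1 lay within the PBS range, and the log2 fold change of 1.46 (SE 0.43, adjusted p = 0.0206) did not pass the test with library size alone, without a filter on low counts or without PBS library 3.

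2 of the 19 fell. AW011738 on chr4:156287656-156295023 starts 2353 bases from the interferon-stimulated gene Isg15 and 5642 bases from Agrn, which encodes agrin, both on the opposite strand. Its normalized CPM were 11, 11.3, 11.3 and 12.8 in PBS and 4.19, 3.15, 4.14 and 3.69 in TNF, which left a wide gap between the groups (log2 fold change -1.61, SE 0.14, adjusted p = 6.4e-06). Both neighbours went the other way, Isg15 with 2.89 (adjusted p = 3.39e-06) and Agrn with 0.59 (adjusted p = 0.00519) on the log2 scale. 2810013P06Rik on chr8:123769121-123771349, whose start lies 36 bases from that of the chromatin regulator gene Ankrd11, had 6.57, 6.73, 5.48 and 7.92 normalized CPM in PBS and 2.63, 2.42, 1.86 and 6.01 in TNF. TNF library 4 lay within the PBS range, the log2 fold change was -1.13 (SE 0.31, adjusted p = 0.0134), and Ankrd11 had 0.15 (adjusted p = 0.738).

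The other 14 of the 19 were not called. AI506816, a snoRNA host on chr5:23903290-23917684 and the most abundant of the 40 in PBS, had 55.5, 54.5, 51.5 and 39.3 normalized CPM in PBS and 51.6, 57.2, 50.3 and 39.3 in TNF. Library 4 was the lowest in both groups, and the log2 fold change was -0.01 (SE 0.15, adjusted p = 0.945). The snoRNA host Snhg8 was at 3.73 ± 0.434 and 4.03 ± 1.35 normalized CPM (log2 fold change 0.08, SE 0.22, adjusted p = 0.796). The counts of 3 higher and 2 lower among the 19 became 5 and 4 without TNF library 4, beside 26.6% and 23.8% of all genes tested in that fit. They became 1 and 2 when libraries were scaled by their totals alone, beside 5.65% and 18.1% of all genes tested.

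4 of the 40 reached the floor in TNF alone. Such members had to be higher in TNF to be listed in this way, so their values are given without a test. 1200007C13Rik on chr2:167669605-167675566 had 0.0804, 0.0744, 0 and 0.0226 normalized CPM in PBS and 1.99, 4.12, 3.02 and 2.49 in TNF, or 5.89 on the log2 scale. Gm28512 had 0.181 ± 0.145 and 2.83 ± 1.10. It lies inside a coding gene on the same strand, and unspliced reads of that gene and reads of Gm28512 cannot be told apart. 4732490B19Rik on chr11:113094141-113100729 had 1.13, 1.12, 0.788 and 1.72 normalized CPM in PBS and 9.55, 8.27, 12.4 and 11.6 in TNF. D430020J02Rik, which starts 132 bases from the condensin gene Ncapg2, had 1.02 ± 0.0965 and 3.50 ± 0.655, while Ncapg2 had a log2 fold change of -0.21 (adjusted p = 0.453).

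17 of the 40 reached the floor in PBS alone and are likewise given without a test. Gm32540 on chr8:10866379-10916295 was the highest of them with 2.71, 6.17, 5.28 and 10.8 normalized CPM in PBS and 1.60, 1.31, 1.51 and 1.03 in TNF. Gm50287 had 2.65 ± 0.420 and 0.328 ± 0.162 (log2 fold change -2.96), Gm44421, which begins 3228 bases downstream of Klf15, 1.88 ± 0.667 and 0.319 ± 0.183 (-2.43), and 2610507I01Rik, whose start is 63 bases from that of the mitochondrial ribosomal gene Mrpl55, 1.72 ± 0.448 and 0.463 ± 0.201 (-1.80). The rule favours lower TNF values for such members, so their direction is no result. Mrpl55 had a log2 fold change of 0.25 (adjusted p = 0.374) and Klf15 one of -0.55 (adjusted p = 0.013). Gm20300, downstream of Hint3 (log2 fold change 0.24, adjusted p = 0.659), had 4.62 ± 0.549 and 1.98 ± 0.539 normalized CPM. Gm46560 had 2.30 ± 0.382 and 0.753 ± 0.134. 9130016M20Rik, downstream of the RNA-binding protein gene A1cf (log2 fold change -1.09, adjusted p = 0.000582), had 3.67 ± 0.585 and 1.41 ± 0.532. The plot of lncRNAs without a shared exonic base shows these levels by library.

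**Figure D1:**
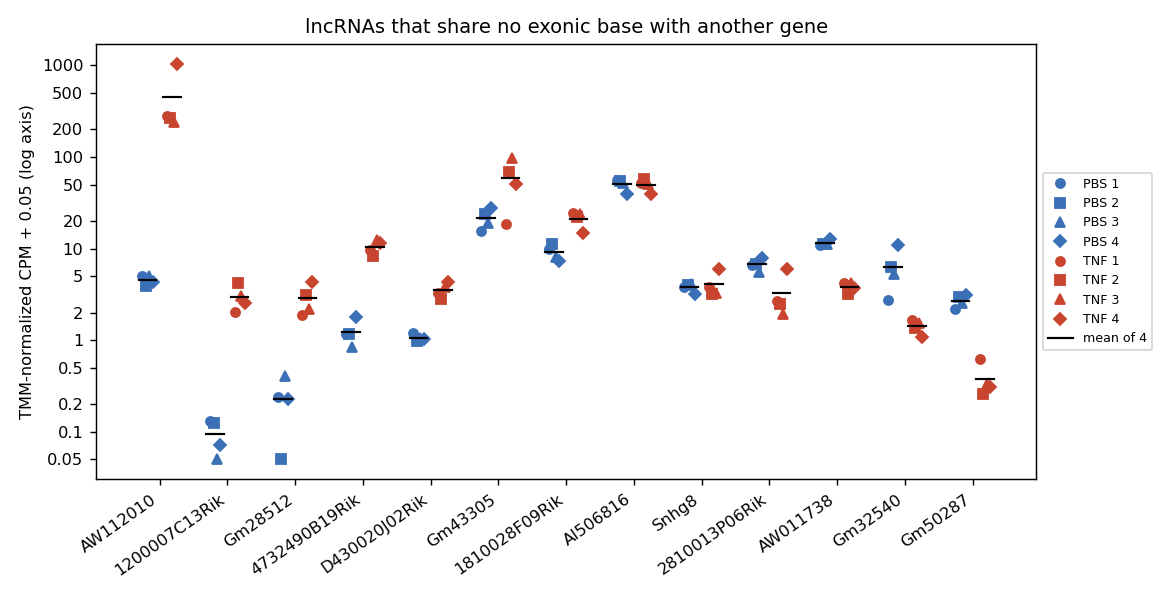
TMM-normalized CPM plus 0.05 on a log axis for 13 lncRNAs that share no exonic base with any other gene, small RNA genes left aside. PBS libraries are in blue and TNF libraries in red, with a marker shape for each replicate number and a bar at the mean of 4. AW112010 goes from 4.50 to 456 normalized CPM, AW011738 from 11.6 to 3.79, and AI506816 is at 50.2 and 49.6.

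Across the 426 members above the floor in both groups, 98 (23.0%) were called higher in TNF and 61 (14.3%) lower at an adjusted p under 0.05, and 267 were not called. Among all 13368 genes tested, 23.2% were called higher and 19.6% lower. Among 9349 protein-coding genes at 2 CPM or more in both groups the shares were 26.8% and 18.1%. The median log2 fold change was 0.16 over the members, 0.09 over those coding genes and 0.03 over all genes tested. The normalized values of the 4 TNF and 4 PBS libraries did not overlap for 161 of the 426 (37.8%), against 42.1% of all genes tested. A change of at least 2-fold was estimated upward for 41 members and downward for 23. Scaling moved this split: with library size alone 27 members were called higher and 57 lower, beside 5.65% and 18.1% of all genes tested, with medians of -0.24 over the members and -0.38 over all genes.

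**Figure D2:**
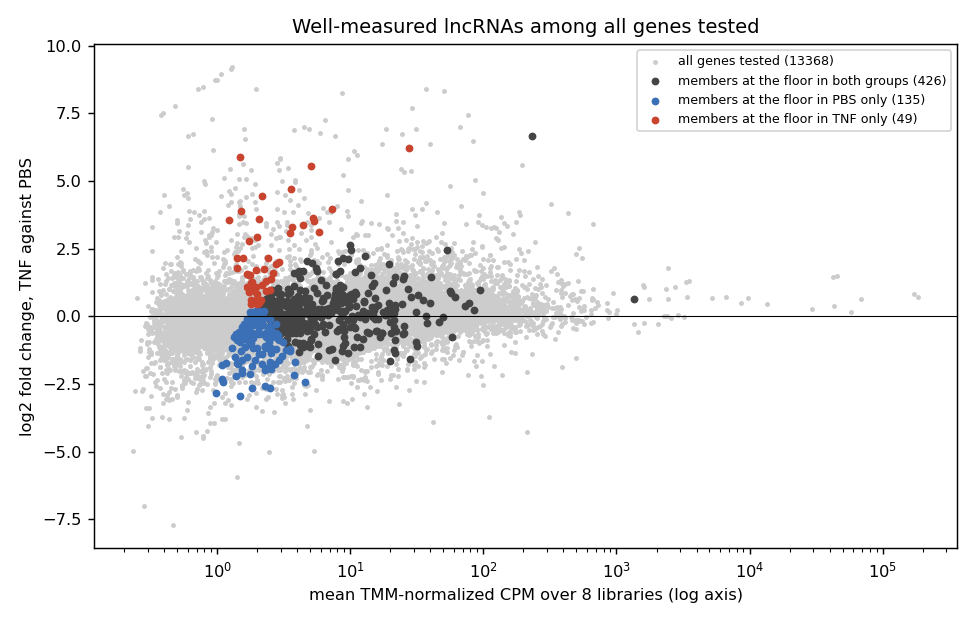
Log2 fold change (TNF against PBS) against the mean TMM-normalized CPM over 8 libraries (log axis) for all 13368 genes tested in grey and for the lncRNA members by the groups in which they reached 2 CPM. The members above the floor in both groups (dark) spread around a median of 0.16, and those above it in PBS alone (blue) or TNF alone (red) lie low on the level axis and mostly below and above 0, as the selection by level favours; AI480526 was not tested and is not drawn.

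The log2 fold changes of members with shared exons lay close to those of their antisense partners. Over 456 pairs of a member above the floor in both groups and a coding gene with overlapping exons on opposite strands, the Pearson correlation was 0.784 and the Spearman correlation 0.78. The pairs are not independent, since all come from the same 8 libraries and some share a gene. By the share of the lncRNA's exonic bases that overlapped, Pearson's r was 0.612 over 115 pairs at up to 10%, 0.807 over 250 pairs above 10% and up to 50%, 0.944 over 63 pairs above 50% and 0.997 over 28 pairs at 100%. The median absolute difference between the partners was 0.197, 0.117, 0.0723 and 0.0517 in the same order on the log2 scale. By comparison, r was 0.179 over 22 pairs whose start sites lay within 2000 bases without a shared exonic base, and 0.061 over 39 pairs where the member began within 5000 bases downstream of a coding gene on the same strand. Members above the floor in 1 group only, whose direction the selection largely fixes, are left out of these values.

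**Figure D3:**
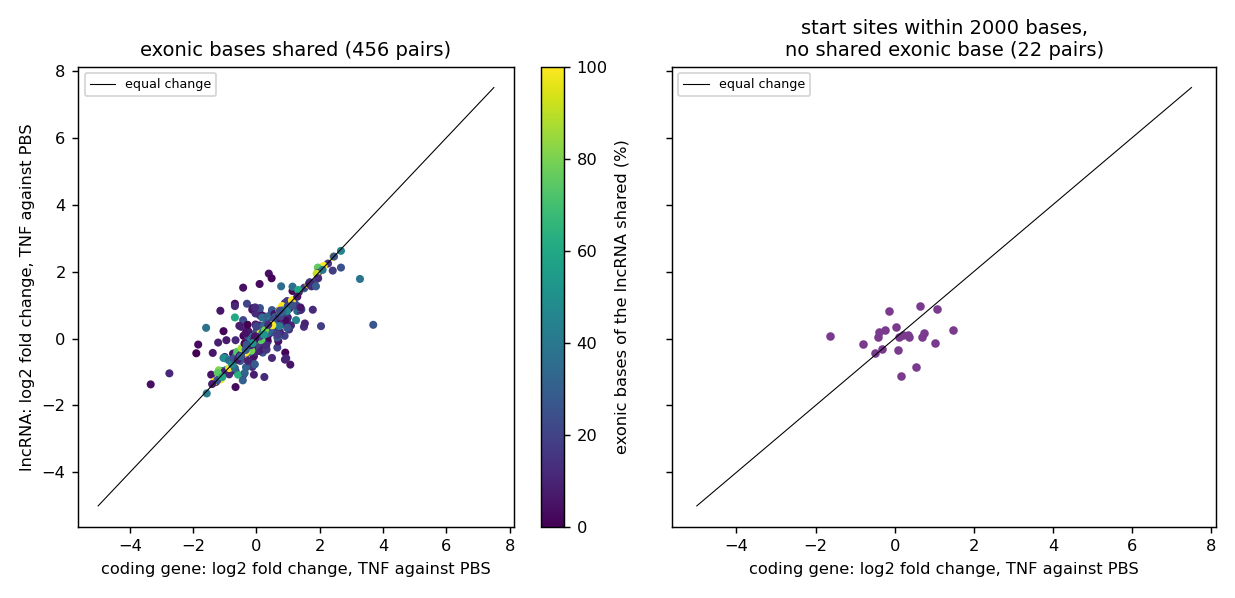
Log2 fold change (TNF against PBS) of the lncRNA (above the floor in both groups) against that of its coding neighbour, for 456 pairs with overlapping exons on opposite strands (left, coloured by the percentage of the lncRNA's exonic bases that overlap) and for 22 pairs with start sites within 2000 bases and no shared exonic base (right). Pairs with full overlap lie along the line of equal change (r = 0.997), and the pairs on the right do not follow that line (r = 0.179, median absolute difference 0.485).

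The ratio of counts within such pairs had a median coefficient of variation over the 8 libraries of 19.5% at up to 10% sharing and 8.9% at full sharing, and some pairs lay far below that. AV064505 on chr9:7669430-7695632, the most abundant member at 1240 CPM in PBS and 1170 in TNF, overlaps 23.6% of its exonic bases with Mmp7, which encodes matrilysin, the protease that activates alpha-defensins in mouse Paneth cells. Its count was 26.3%, 26.5%, 25.6% and 26.2% of the Mmp7 count in PBS libraries 1 to 4 and 26.1%, 25.9%, 25.7% and 25.7% in TNF. The ratio therefore moved by 1.25% (coefficient of variation), whereas the normalized CPM of AV064505 ranged from 822 to 3730 among the TNF libraries. Its log2 fold change of 0.65 (SE 0.45, adjusted p = 0.283) lay beside 0.67 for Mmp7 (adjusted p = 0.263). It was -0.13 without TNF library 4 and -0.08 with library size alone.

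Per kilobase of exon, the 6 members highest in PBS were AV064505, Gm44170, Gm37401, Gm17035, Gm17099 and Gm50251, and each overlapped a coding gene. Gm44170, all of whose exonic bases lie in Sec61a1 (the protein-conducting channel of the endoplasmic reticulum), had 22.4% to 24.5% of its partner's count in the 8 libraries. Gm17035 (all in Ndrg1, a stress-responsive gene) was lower (log2 fold change -0.88, adjusted p = 0.000305) beside -0.86 for Ndrg1, and Gm17099 (all in Tmprss4, a membrane serine protease) rose by 0.80 (adjusted p = 0.000138) beside 0.88. With library size alone Gm17099 had 0.41 and was not called (adjusted p = 0.354). Gm37401 in Rhoa and Gm50251 in Ppp1ca were not called, with 0.16 (adjusted p = 0.304) and 0.25 (adjusted p = 0.339), and both had a negative sign with library size alone (-0.23 and -0.22), as did Gm44170 (-0.12 against 0.22).

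Next to AW112010, the 9 largest rises above the floor in both groups with no overlap between the groups all shared exonic bases with a coding gene on the opposite strand. 4 lie in the major histocompatibility complex of chromosome 17: Gm15821 (chr17:34430286-34433433, antisense to the peptide transporter gene Tap2), Gm20496 (chr17:34418290-34424423, antisense to the immunoproteasome gene Psmb8 and to Tap2), Gm19412 (chr17:34138249-34139481, antisense to tapasin, Tapbp) and Gm11131 (chr17:35595991-35599280, antisense to the class I gene H2-Q4). Gm15821 had 2.71, 3.12, 2.99 and 2.31 normalized CPM in PBS and 20.1, 16.8, 14.1 and 17.0 in TNF, and rose by 2.62 on the log2 scale (SE 0.16, adjusted p = 4.86e-07). Tap2 had 2.67, and the count of Gm15821 was 30.6% to 39.1% of that of Tap2. Log2 fold changes were 2.12 for Gm20496 (Psmb8 1.94, Tap2 2.67), 1.94 for Gm19412 (Tapbp 1.90) and 2.03 for Gm11131 (H2-Q4 2.41).

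Gm20412 lies wholly within exons of Tgm2, which encodes transglutaminase 2. It had 15.2, 15.9, 17.5 and 18.4 normalized CPM in PBS and 88.1, 103, 98.7 and 73.3 in TNF (log2 fold change 2.44, SE 0.14, adjusted p = 2.95e-07), beside 2.42 for Tgm2, and its count was 22.6% to 25.9% of the Tgm2 count throughout. Gm15283, antisense to the hypoxia factor gene Hif1a, rose by 2.24 on the log2 scale (Hif1a 2.26), Gm17139, within the ubiquitin ligase gene Arel1, by 2.17 (Arel1 2.12), Gm39318, antisense to the Toll-like receptor adaptor gene Tirap, by 2.05 (Tirap 2.09), and Gm26885, antisense to the kinase gene Pim1, by 1.96 (Pim1 1.94). Their adjusted p-values were 5.45e-06, 7.92e-06, 5.01e-06 and 1.5e-05. The partners named here differed from their members by less than 0.6 on the log2 scale. Other neighbours did not. Zbtb22, which shares 4.14% of the exonic bases of Gm19412, had 0.39. Rprd1b, in which Gm20412 lies on the same strand without a shared exonic base, had 1.13, and Rgl2, whose start site lies 9007 bases from that of Gm19412, had -0.38 (adjusted p = 0.0675). Gm26885 and Pim1 shared only 5.29% of the exonic bases of Gm26885, and Gm15283 and Hif1a 14.7%.

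Of the 10 largest falls, AW011738 is described above. 4921516A02Rik on chr10:78264105-78274681, antisense to the pyridoxal kinase gene Pdxk, had 29.7, 28.0, 27.9 and 34.1 normalized CPM in PBS and 11.3, 8.82, 10.3 and 7.73 in TNF (log2 fold change -1.64, SE 0.14, adjusted p = 6.07e-06), beside -1.57 for Pdxk. Gm27162 on chr9:32813729-32840439, which shares 19.4% of its exonic bases with another lncRNA and none with a coding gene on the opposite strand, had 41.8 ± 3.69 and 14.1 ± 2.08 (log2 fold change -1.57, SE 0.13, adjusted p = 4.97e-06). The falls of Gm49544 (-1.36), Gm15462 (-1.30), Mxd4os1 (-1.28) and Gm45767 (-1.24) lay beside those of the linker histone gene H1f0 (-1.40), Lrrc31 (-1.28), the Myc antagonist gene Mxd4 (-1.33) and the plasmolipin gene Pllp (-1.23). Gm45767 had 76.3% to 83.0% of the Pllp count in the 8 libraries. Same-strand neighbours upstream differed: Arl2bp, 1151 bases from Gm45767, had 0.70 (adjusted p = 0.000714), and Cstb, 114 bases from 4921516A02Rik, had 0.79 (adjusted p = 0.0958). Nfatc3, 4929 bases from 1810019D21Rik (a further fall, below), was called lower like that lncRNA, with -0.46 (adjusted p = 0.0119).

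3 further falls departed from their partners. 2010007H06Rik on chr9:51185018-51195510, which shares 3.94% of its exonic bases with Pou2af3 (a POU-factor coactivator gene of tuft cells), had 31.2 ± 6.18 and 12 ± 2.92 normalized CPM (log2 fold change -1.37, SE 0.19, adjusted p = 0.000177), while Pou2af3 had -3.34. Its count went from 118% to 152% of the Pou2af3 count in PBS to 289% to 641% in TNF. Summed tuft cell markers were 12.5 to 29.0 CPM in PBS and 7.54 to 23.7 in TNF, and their part in this was not tested. 4933406C10Rik had -1.45 (adjusted p = 0.00946) beside -0.66 for Sypl1, and 1810019D21Rik -1.25 (adjusted p = 0.00244) beside -0.43 for the splicing regulator gene Esrp2.

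Of 154 called members with a shared base above the floor in both groups, 142 had a tested antisense coding partner, and for 132 a partner was called in the same direction. Members with a partner called in the opposite direction numbered 5: Gm10575 (Cd151), D030028A08Rik (Sp2), Gm16279 (2310061I04Rik), and Gm17077 and Gm4673 (both with Usf2). 4833438C02Rik, antisense to the NF-kB subunit gene Nfkb2, had a smaller log2 fold change than its partner, with 5.33 ± 0.868 and 18.5 ± 1.95 normalized CPM (log2 fold change 1.78, SE 0.15) against 3.27 for Nfkb2, and 38.4% of its exonic bases overlap. The difference between the partners was not tested. These named exceptions were chosen after their values were seen. Of 373 members above the floor in both groups with a tested antisense partner, 348 (93.3%) lay within 0.5 of a partner on the log2 scale and 8 lay more than 1 from each of theirs.

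**Figure D4:**
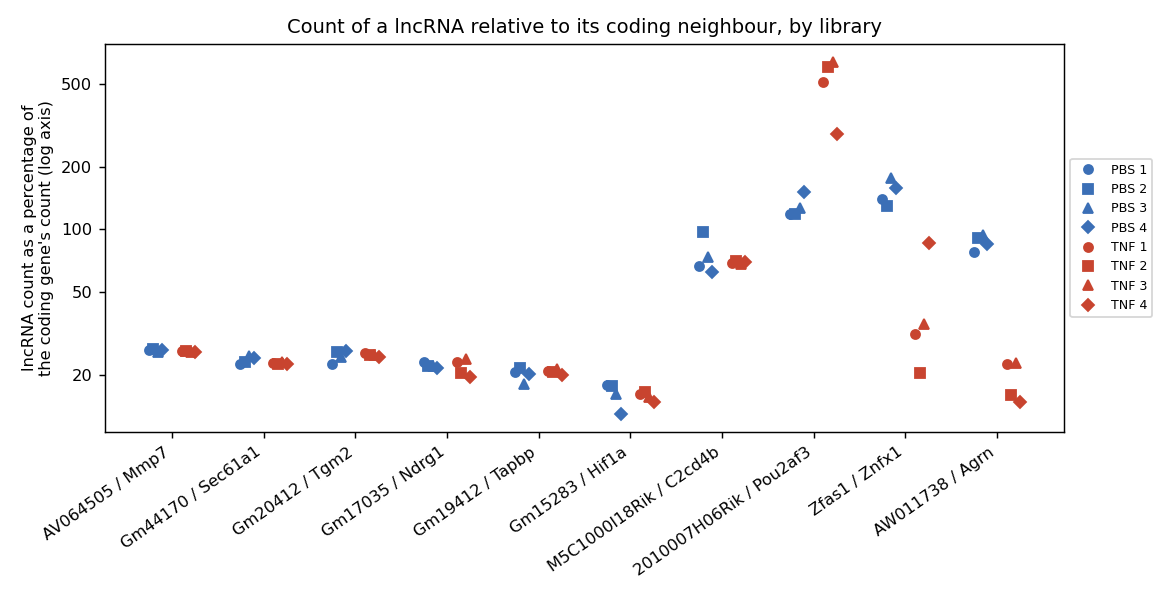
Count of the lncRNA as a percentage of the count of its coding neighbour (log axis) in each of 8 libraries for 10 pairs, PBS in blue and TNF in red. AV064505 and Mmp7 hold 25.6% to 26.5% in every library, whereas 2010007H06Rik and Pou2af3, Zfas1 and Znfx1, and AW011738 and Agrn (no shared exonic base) change between the groups.

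49 members reached the floor in TNF alone, and these are described without a test. The highest was M5C1000I18Rik on chr9:67665620-67667512, which starts 806 bases from C2cd4b (an inflammation-responsive gene) and overlaps it with 33.8% of its exonic bases. It had 0.536, 1.12, 0.867 and 0.452 normalized CPM in PBS and 43.5, 59.8, 68.8 and 44.6 in TNF, and the log2 fold changes were 6.24 and 6.37 for C2cd4b. Gm47079, on the opposite strand of the adhesion gene Icam1, had 0.206 ± 0.0573 and 9.96 ± 0.762 (log2 fold change 5.55, Icam1 6.92). Gm16175, antisense to the NF-kB regulator gene Bcl3, was at 0.862 ± 0.251 and 13.8 ± 2.37, Gm17041, within the cytokine feedback gene Cish, at 0.886 ± 0.241 and 9.83 ± 2.41, and Gm12144, antisense to the lipid flippase gene Atp10b, at 0.781 ± 0.0899 and 9.64 ± 2.84. The rows for Bcl3, Cish and Atp10b had log2 fold changes of 3.74, 3.42 and 3.49, against 3.98, 3.51 and 3.62 for these 3 lncRNAs.

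Of the 136 members above the floor in PBS alone, the highest was 1110002L01Rik on chr12:3453878-3477717, with 7.34, 6.88, 5.52 and 10.7 normalized CPM in PBS and 1.31, 1.35, 1.19 and 2.06 in TNF. It is antisense to Kif3c (log2 fold change -2.73, against -2.42 for the lncRNA) and to Asxl2 (-0.66). Gm16136, which starts 387 bases from the epithelial factor gene Grhl2, was at 5.86 ± 0.394 and 1.80 ± 0.121, Gm26577, antisense to the proliferation factor gene Myb, at 4.98 ± 0.0915 and 2.02 ± 0.682, and 1700021J08Rik, antisense to Hectd3, at 4.93 ± 1.01 and 2.12 ± 0.399. Grhl2, Myb and Hectd3 had log2 fold changes of -0.77, -1.33 and -1.26, beside -1.69, -1.28 and -1.22 for the lncRNAs. AI480526, at 65, 9, 7 and 176 counts in PBS and 3, 8, 7 and 16 in TNF, did not pass the filter on low counts and was not tested.

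The snoRNA hosts, which are spliced to release the guides of ribosomal RNA modification and whose exonic RNA is often degraded during translation, counted 16 members, 13 of them above the floor in both groups. The edgeR test called 0 of the 13 in either direction, with 2 higher and 0 lower at an unadjusted p under 0.05, where 23.2% of all genes tested were called higher and 19.6% lower. DESeq2 called 2 higher and 0 lower, limma-voom 1 higher and 3 lower, and edgeR with library size alone 0 higher and 3 lower. With library size alone 5.65% of all genes tested were called higher and 18.1% lower. Over all genes DESeq2 called 6109 and limma-voom 5925, where edgeR called 5729. The median log2 fold change of the 13 hosts was 0.08 with all libraries and -0.13 without TNF library 4. Gas5, a host linked to growth arrest, had 24.4, 25.4, 25.6 and 25.8 normalized CPM in PBS and 13.4, 10.9, 9.65 and 36.8 in TNF (log2 fold change -0.55, SE 0.38, adjusted p = 0.281). In plain CPM it had 26.6 to 35 in PBS and 14.8, 10.8, 10.3 and 16.5 in TNF, where the groups did not overlap. Zfas1, which starts next to the antiviral gene Znfx1, had 11.1 ± 1.14 and 6.74 ± 4.73 (log2 fold change -0.78, SE 0.38, adjusted p = 0.123), with TNF library 4 at 13.7 and the others at 3.36 to 5.19, while Znfx1 had 1.07 (adjusted p = 2.19e-05).

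Without TNF library 4, 4 of the 13 hosts were lower: Gas5 (log2 fold change -1.14, adjusted p = 1.16e-05), Zfas1 (-1.32, 3.62e-05), 2410006H16Rik (-1.12, 7.62e-05) and Snhg18 (-0.67, 0.000577), and 0 were higher. In that fit 23.8% of all genes tested were lower and 26.6% higher. Snhg1 had 8.12 ± 1.14 and 9.58 ± 6.11 normalized CPM with all libraries (log2 fold change 0.19, adjusted p = 0.683), and Snhg17 3.93 ± 2.39 and 9.18 ± 4.92 (1.17, adjusted p = 0.065).

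The nuclear scaffold RNAs varied more between libraries than between groups. Neat1 had 11, 4.31, 4.22 and 27.7 normalized CPM in PBS and 2.80, 2.18, 2.11 and 19.3 in TNF, with library 4 the highest of both groups (log2 fold change -0.98, SE 0.87, adjusted p = 0.394, and -2.33 without TNF library 4, adjusted p = 0.0427). Malat1 had 10.3, 5.02, 5.28 and 38.1 in PBS and 9.69, 7.92, 9.44 and 32.9 in TNF (log2 fold change -0.02, SE 0.71, adjusted p = 0.984, and 1.01 without PBS library 4). How much nuclear RNA each library held was not measured. Of 12 coding genes for paraspeckle proteins, 4 were called higher (among them Pspc1 0.82, Sfpq 0.52 and Hnrnpk 0.36 on the log2 scale) and 3 lower (Rbm4b -1.02, Rbm14 -0.81 and Nono -0.40), with a median log2 fold change of -0.08. Over all genes tested 23.2% were called higher and 19.6% lower, so these shares lie near the background. With library size alone edgeR called 0 higher (1 at an unadjusted p under 0.05) and 2 lower, beside 5.65% and 18.1% of all genes tested. DESeq2 and limma-voom each called 4 higher and 3 lower.

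Of 12 microRNA hosts among the members, 8 were above the floor in both groups, with 1 called higher (Gm20033, log2 fold change 0.90, adjusted p = 0.0347) and 1 lower (4921516A02Rik, above), beside 23.2% and 19.6% of all genes tested. Gm20033 did not pass the test when any of 6 single libraries was left out, nor with library size alone (0.57, adjusted p = 0.383). Mir22hg, the host of miR-22, reached the floor in TNF alone, with 1.07, 0.632, 0.867 and 0.905 normalized CPM in PBS and 1.81, 1.87, 2.77 and 3.86 in TNF, a log2 fold change of 1.52. It is listed through its TNF level, so this is a description, and 10.7% of its exonic bases are shared with a gene on the same strand. The mature microRNAs of this host in RefSeq (table of GRCm38.p6) are shown with the seed, bases 2 to 8, in capitals. The libraries measure the host and not the microRNA.
mmu-miR-22-5p: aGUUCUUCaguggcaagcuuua
mmu-miR-22-3p: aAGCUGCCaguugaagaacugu

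The imprinted lncRNAs were represented by 4 of 8 listed genes. Peg13 on chr15:72677449-72682173, which is expressed from the paternal allele inside Trappc9 and shares 27.4% of its exonic bases with it on the same strand, had 18.7, 20.3, 20.8 and 24.8 normalized CPM in PBS and 12.5, 12.8, 16.2 and 7.81 in TNF (log2 fold change -0.77, SE 0.19, adjusted p = 0.0075). Its groups did not overlap, but with library size alone it was not called. Kcnq1ot1, the silencing transcript of the Kcnq1 domain, had 4.79 ± 0.289 and 3.08 ± 1.37 (log2 fold change -0.61, adjusted p = 0.0722). Snhg14 had 5.74 ± 0.942 and 4.70 ± 0.709 (-0.30, adjusted p = 0.188), and Airn reached the floor in PBS alone, with 2.08 ± 0.739 and 1.18 ± 0.184. Meg3 had 0 counts in every library and H19 between 0 and 4.

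**Figure D5:**
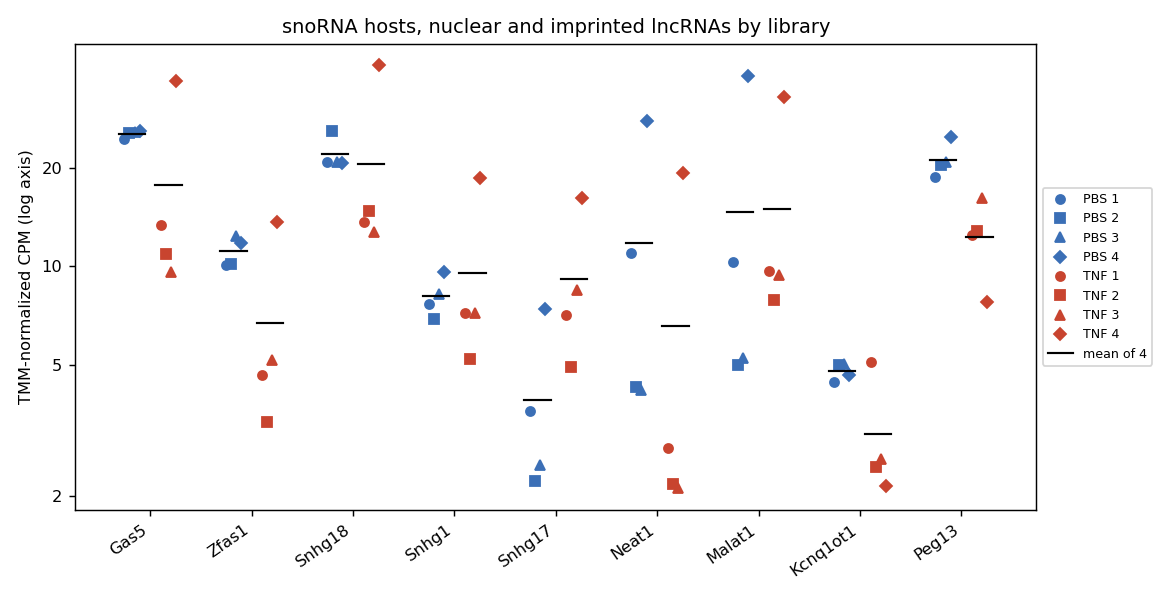
TMM-normalized CPM (log axis) by library for 5 snoRNA hosts (Gas5, Zfas1, Snhg18, Snhg1 and Snhg17), 2 nuclear scaffold RNAs (Neat1 and Malat1) and 2 imprinted lncRNAs (Kcnq1ot1 and Peg13), with bars at the mean of 4. TNF library 4 (red diamonds) is the highest TNF value for the first 7 and the lowest for Kcnq1ot1 and Peg13.

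Of 14 lncRNAs known from inflammation in other cells with a row in the table, 3 were members (Neat1, Malat1 and Mir22hg), where 6.85% of all autosomal lncRNA rows were. Mir155hg, Ptgs2os, Ptgs2os2 and Mirt2 had 0 counts in every library, which allows up to 3 counts a library. Gm16685, which overlaps the cytokine gene Il7 on the opposite strand, missed the floor: it had 0 counts in all 4 PBS libraries and 37, 102, 31 and 31 in TNF, or 1.83 CPM on average. Its log2 fold change was 8.94 (SE 0.94, adjusted p = 0.000146), a size that rests on 0 counts in PBS. Trp53cor1, of the same list and below the floor in both groups, fell from 0.80 ± 0.321 to 0.0694 ± 0.0740 normalized CPM (log2 fold change -3.81, SE 0.64, adjusted p = 0.000684).

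Coding genes for the machinery that removes noncoding transcripts were read from lists of known factors. Of 8 genes for the nuclear exosome and its adaptors, 5 were called higher (Dis3 0.97, Rbm7 0.84, Exosc3 0.77, Mphosph6 0.73 and Exosc10 0.68 on the log2 scale) and 0 lower, with a median of 0.71 against 0.03 over all genes tested, of which 23.2% were called higher and 19.6% lower. Of 10 genes for nonsense-mediated decay, 4 were called higher (among them Upf1 0.73, Smg8 0.72 and Smg5 0.54) and Smg6 lower (-0.58), beside the same 23.2% and 19.6% over all genes. With library size alone edgeR called 0 genes of either list, with 0 higher at an unadjusted p under 0.05 in both, 0 lower in the first and 1 lower in the second. In that fit 5.65% of all genes tested were called higher and 18.1% lower. DESeq2 and limma-voom gave the same counts as edgeR with TMM scaling, 5 and 0 for the exosome and 4 and 1 for nonsense-mediated decay.

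The floor lay within a continuous range of levels. Just inside lay Hnf1aos1 (2.005 CPM in PBS and 0.9415 in TNF) and Gm20659 (2.017 and 1.781). Just outside lay 1700008J07Rik (1.997 and 1.276) and 2010001A14Rik (1.993 and 1.965).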

How the data were processed

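RNA of Paneth cells sorted from the small intestine was sequenced as poly(A) mRNA with a stranded kit in 4 PBS and 4 TNF libraries. The authors deposited 1 table of raw gene counts with Ensembl IDs, and all 8 columns matched a label. Their processing notes name FastQC 0.12, STAR 2.7.10a, DESeq2 and mm39. For the counting tool, its strand setting and its treatment of reads with several matches, nothing is given in those sources. Gene types, exons and neighbours came from GENCODE M39 on GRCm39, whereas the study's methods name M30 for a related analysis, so exon models may differ from those counted.

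Of 55414 rows, 54749 matched the annotation by gene ID. Library totals, 23824717 to 32576077 counts, set the precision, and no pair of libraries agreed within sampling noise. Genes were tested across the whole table with edgeR 4.0.16 (R 4.3.3) on a filtered table of 13368 genes, with TMM scaling, a quasi-likelihood test of TNF against PBS without a block, and Benjamini-Hochberg adjustment. Calls use an adjusted p under 0.05, and fitting was tested on simulated data. Normalized CPM are CPM over TMM-scaled library sizes. Shared exonic bases were counted from merged exons of all transcripts. Genes of small RNAs (snoRNA, microRNA, snRNA, scaRNA and miscellaneous RNA types) were left out of this count. Alternatives were library size alone, RLE scaling, TMM factors computed without Defa genes, other filters, DESeq2 1.42.0, limma-voom (limma 3.58.1), a replicate block and each library left out.

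Named were the 6 members highest per kilobase in PBS, the 10 largest called rises and falls whose groups did not overlap, the 6 highest members above the floor in 1 group only, the neighbours of the floor, and members of lists of known genes. Members without a shared base and partners far from their member were described beyond that rule, after their values were seen. The members and lists were chosen with earlier results of these data known. Results for some genes are not reported here.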

Additional observations from a re-analysis of the deposited data

Results flagged for a closer look

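Within each group of 4, a library was looked for whose gap to the nearest other library, divided by the group's range, exceeds Dixon's critical value for 4 samples. Of 144 groups of 4 values (72 lncRNAs), 16 did, and chance alone gives about 1 in 20.

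TNF library 4 was the highest of its group in 8 of these. The gap was 0.952 of the range for AW112010 (1040 normalized CPM against 240 to 278), 0.9 for AV064505 (3730 against 822 to 1110), 0.861 for Gas5 (36.8 against 9.65 to 13.4) and 0.931 for Snhg18 (41.0 against 12.7 to 14.7). It was 0.85 for Snhg1 (18.6 against 5.22 to 7.24), 0.959 for Neat1 (19.3 against 2.11 to 2.80) and 0.929 for Malat1 (32.9 against 7.92 to 9.69). Rap1gapos, a member above the floor in PBS alone, also had its highest TNF value there (2.15, gap 0.956). The TMM factor of that library was 0.448, and its part in these values was not tested.

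PBS library 4 stood apart in 4 PBS groups, as the highest for Malat1 (38.1 against 5.02 to 10.3, gap 0.841), 1810019D21Rik (15.5 against 7.69 to 8.16, gap 0.941) and Gm1965 (5.41, gap 0.92) and as the lowest for Rap1gapos (2.24, gap 0.915). The other cases were Gm20496 in PBS library 2 (4.76 against 3.10 to 3.35, gap 0.85), Snhg18 in PBS library 2 (25.8 against 20.6 to 20.8, gap 0.95), Gm46560 in PBS library 3 (1.73 against 2.45 to 2.52, gap 0.917) and Kcnq1ot1 in TNF library 1 (5.11 against 2.15 to 2.60, gap 0.848).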

How the results depend on the processing

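Among members above the floor in both groups, library size alone gave 27 called higher in place of 98, 3172 called genes in place of 5729, and 60 pairs called in the same direction in place of 141. A floor of 5 CPM gave 282 members in place of 611, with 55 higher and 28 lower. A floor of 1 CPM gave 933 members, with 130 higher in place of 98 and 96 lower in place of 61. A floor on the mean over all 8 libraries gave 528 members, with 122 called higher and 100 lower. These include members above 2 CPM in 1 group only, whose direction the selection favours. The floors do not change the fit, in which 23.2% of all genes tested were called higher and 19.6% lower. A threshold of 0.01 gave 74 members higher and 38 lower, with 3912 called genes. Without members that share opposite-strand bases 3 were higher and 4 lower. Alternatives chosen after seeing the data gave 3 and 2 without sharing on either strand, and 14 and 13 for sharing of up to 10%.

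Leaving out 1 library at a time gave 81 to 114 higher, 49 to 73 lower, 588 to 633 members, 4770 to 6923 called genes and 113 to 161 pairs. With the replicate number as a block, 91 were higher and 58 lower, with 5071 called genes and 128 pairs. Among the 72 named lncRNAs, 1 lost its call under the block, 3 gained one and 1 changed sign. Same-numbered libraries did not deviate together (correlations 0.0229, 0.0663, -0.144 and -0.126), so the numbers were not taken as a pairing.

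Of 1152 values of named lncRNAs under alternatives, 21 changed sign. With library size alone these were AV064505 -0.08, Gm37401 -0.23, Gm44170 -0.12, Gm50251 -0.22, Snhg8 -0.38 and Snhg1 -0.41. Under the same setting 5 lost their call (Gm17099 0.41, Gm20033 0.57, Gm43305 1.08, 1810028F09Rik 0.92 and Peg13 -1.09), 3 gained one (Gas5 -1.19, Zfas1 -1.38 and Neat1 -1.91), and 17 members above the floor in 1 group only moved beyond their spread in the same direction. Malat1 had 0.07 with limma-voom and 0.28 with the block, and Snhg1 -0.07 with limma-voom. With a library left out, AV064505 ranged from -0.13 to 0.87, Malat1 from -0.71 to 1.01, Snhg18 from -0.67 to 0.05, Snhg8 from -0.13 to 0.18, Snhg1 from -0.30 to 0.35 and AI506816 from -0.15 to 0.09. The causes were not tested. Depth limits a typical member too: a median of 101 counts a library leaves counting error as a sizeable part of the spread.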
